A study of Mus musculus with 20 samples.

Results

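The lungs of wild type mice kept in 10% oxygen for 28 days were compared with those of wild type mice kept in 21% oxygen (room air) for the same time, gene by gene and in this genotype alone. The 8 samples were chosen by the genotype and exposure in their labels, 4 in hypoxia and 4 in room air, out of 16 in the study, and they come from 10 of its 20 sequencing libraries. Both groups were C57/129 mice with intact Arginase 2 alleles (Arg2+/+), described as adults of 8 to 10 weeks and of both sexes. The hypoxic animals stayed in hypoxic gas until they were killed under ketamine and xylazine, and the lungs were rinsed and frozen. Total RNA of each lung was freed of ribosomal RNA and made into strand-marking libraries with random primers. The other 8 samples, Arg2-/- mice under the same exposures, enter only through the shared estimate of spread and a closing comparison.

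Weeks of low oxygen constrict the small pulmonary arteries and remodel their walls: smooth muscle spreads to vessels that had little of it, elastin and collagen are laid down, and the pressure in the pulmonary circulation rises. At the level of the cell, oxygen shortage stabilises the hypoxia-inducible factors (HIF), which switch on genes of glycolysis, vessel growth and mitochondrial turnover. The endothelium meets the change through vasodilator and vasoconstrictor pathways, through Notch, VEGF and BMP signals between cells, and through the chemokines it presents.

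The values below are CPM, counts per gene scaled to a common library size by TMM, and differences are log2 fold changes of hypoxia over room air with their standard errors from edgeR, a quasi-likelihood test of counts. A gene rose or fell here when its Benjamini-Hochberg adjusted p over all genes tested was under 0.05. The samples held 9531270 to 43082170 counts in genes. Room air 3 had the fewest, and of its reads assigned to a gene or to no feature 25.4% lay in genes, while room air 1, 2 and 4 had 56.0% to 59.8% there. In hypoxia 4 the ribosomal precursor Rn45s took 19.9% of the counts, against 0.571% to 1.33% in the other 7 samples. Room air 1 carried skeletal muscle transcripts, with the muscle actin Acta1 at 319, 11.6, 0.538 and 3.0 CPM in the 4 room air samples. Lung markers were abundant in every sample: the surfactant gene Sftpc stood at 10215 to 10860 CPM in room air and 8229 to 12649 CPM in hypoxia, and Ager of alveolar type I cells at 1891 to 2345 and 1881 to 2299 CPM. Arg2 itself stood at 8.47, 9.14, 11.8 and 7.30 CPM in room air and at 6.33, 11.7, 10.0 and 9.13 CPM in hypoxia, overlapping throughout. The 8 samples held 1 to 6 counts of Xist and 3192 to 13046 counts of Y-linked genes. All 8 thus read as male, although both sexes are described.

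Chronic hypoxia changed 785 of 15761 genes, 421 upward and 364 downward, which is 4.98% of the genes tested, 2.67% higher and 2.31% lower. Most changes were moderate: 108 rises and 109 falls were below 0.5 on the log2 scale, 183 and 151 lay between 0.5 and 1, and 84 and 88 between 1 and 2. Above 2, a 4-fold change, there were 46 rises and only 16 falls. The 4 samples of each group did not overlap for 647 of the called genes. Over all genes tested the groups did not overlap for 8.24%, 4.3% higher and 3.94% lower, and the median log2 fold change was -0.01. In a whole lung, fewer cells of a type and less RNA per cell cannot be told apart. Without hypoxia 1 the count of called genes was 484, without room air 3 it was 1051, and without room air 3 and hypoxia 4 together 1215. A fit of the 8 wild type samples alone called 400. Gene lists were read by edgeR. They were written with earlier results of these data known, so a share called above that of all genes is a description and not a test. Each list count is to be read beside the shares over all genes given above. Of the 22 lists with 0 members called higher, 11 held 1 to 7 at an unadjusted p under 0.05, 5 held up to 3 by DESeq2 and 1 held 2 by limma voom. Of the 30 with 0 called lower, 17 held up to 6 at an unadjusted p under 0.05, 5 held 1 by DESeq2 and 0 held any by limma voom. Of 74 list counts of 0 or 1 in a direction, 30 moved when 1 sample was left out, to at most 3; for larger counts the samples that moved them by more than 1.5 times are named.

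**Figure D1:**
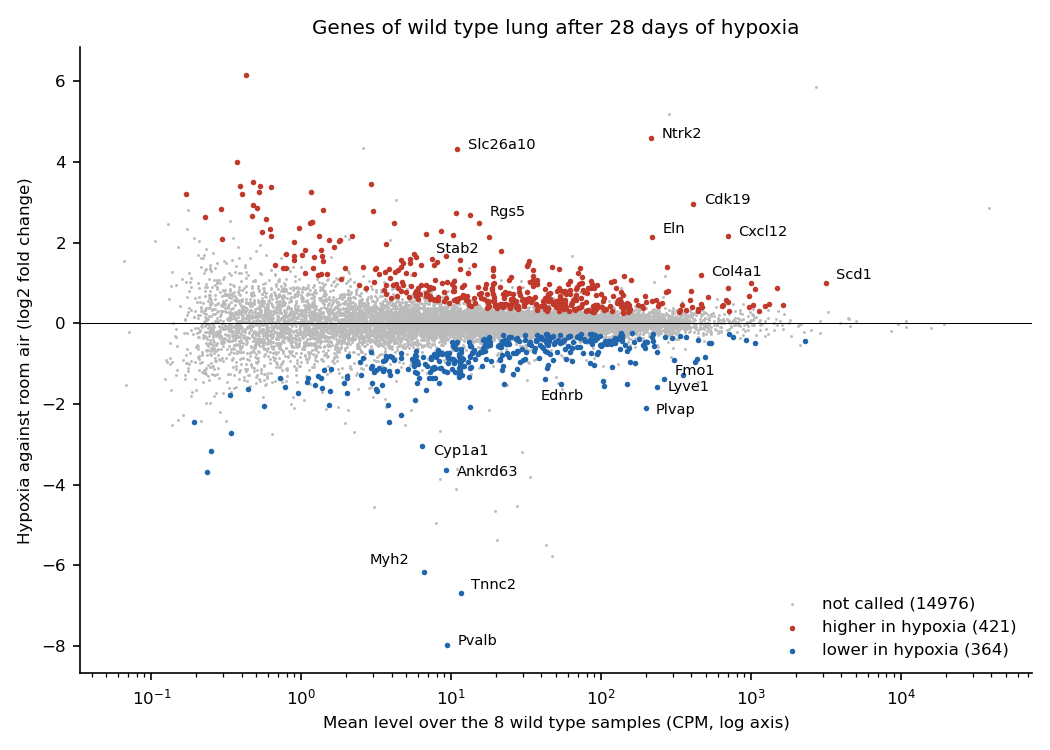
Mean CPM over the 8 wild type samples (x axis, log scale) against the log2 fold change of hypoxia over room air (y axis) for the 15761 genes tested; coloured points passed the edgeR test at an adjusted p under 0.05. The 421 genes above and 364 below the zero line spread over the whole range of expression, and Ntrk2 stands apart among well expressed genes.

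Among genes that reached 1 CPM in a group and did not overlap between groups, Ntrk2, Slc26a10, Lrrc3b and Gm10415 had the largest rises, and Cdk19 was among the 20 largest. Ntrk2, the receptor for brain-derived neurotrophic factor (chromosome 13, 58806569 to 59133970 on GRCm38), stood at 17.7, 13.4, 20.3 and 17.2 CPM in room air and at 506, 397, 373 and 375 CPM in hypoxia. Every hypoxia sample was more than 10 times above every room air sample, and the mean was 24.3-fold higher (log2 fold change 4.60 ± 0.22, edgeR adjusted p = 1.67e-09). Its ligand Bdnf stood at 28.2 to 35.6 CPM in room air and 25.7 to 35.7 CPM in hypoxia and did not pass the test (-0.09 ± 0.13, adjusted p = 0.794). Ret, the receptor for glial cell-derived neurotrophic factors, was the other neurotrophin-type receptor to rise, from 3.24, 3.04, 2.58 and 2.35 to 9.20, 10.0, 7.18 and 9.01 CPM over the 4 samples of each group (1.64 ± 0.16). These were the 2 called members of 12 tested in the list of neurotrophins and their receptors, whose median log2 fold change was 0.10.

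Cdk19, a kinase of the Mediator complex that links transcription factors to RNA polymerase II (chromosome 10, 40339564 to 40483818), stood at 94.3, 83, 99.9 and 101 CPM in room air and 802, 760.2, 729.7 and 630.2 CPM in hypoxia. Each hypoxia sample was more than 6 times above each room air sample (2.95 ± 0.13, edgeR adjusted p = 2.96e-11). Its paralog Cdk8, which takes the same place in the complex, read 22.1 to 28.8 CPM in room air and 21.9 to 24.4 CPM in hypoxia (-0.08 ± 0.11, adjusted p = 0.786), and Cdk19 was the single called member of the 7 Mediator kinase module genes. Slc26a10, of the SLC26 family of anion transporters (chromosome 10, 127171393 to 127180645), went from 0.816, 0.558, 1.29 and 1.64 to 20.6, 24, 24.2 and 14.7 CPM (4.32 ± 0.29). It shares exon bases with B4galnt1 on the other strand, and the strand setting of the counting is not given. B4galnt1 itself did not pass (-0.19 ± 0.10, adjusted p = 0.338).

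Other large rises came from genes of low expression in room air. Lrrc3b, a leucine-rich repeat gene whose exons overlap B230110C06Rik on the other strand, went from 0.331, 0.341, 0.108 and 0.962 to 8.01, 5.43, 5.11 and 2.90 CPM (3.45 ± 0.47), with hypoxia 4 the lowest of its group. Gm10415, a long noncoding RNA gene, stood at 0.0283 to 0.215 CPM in room air and 0.797 to 1.66 CPM in hypoxia (3.37 ± 0.62). Both stayed below 1 CPM in every room air sample. Rgs5, a regulator of G protein signalling typical of pericytes, stood at 7.61, 2.36, 4.62 and 3.76 CPM in room air and 28.9, 30.2, 33 and 13 CPM in hypoxia (2.49 ± 0.34), and hypoxia 4 was the lowest of its group. Stab2, a scavenger receptor for hyaluronan, went from 2.93, 2.45, 1.51 and 2.43 to 13.1, 13.8, 8.76 and 9.21 CPM (2.21 ± 0.19). Mycn, a transcription factor of the Myc family, rose unevenly: hypoxia 1 stood at 15.7 CPM and the other hypoxia samples at 3.48 to 5.64 CPM, against 0.430 to 1.88 CPM in room air (2.49 ± 0.50). Fam181b rose by 2.30 ± 0.23, the receptor phosphatase gene Ptprr by 2.72 ± 0.26, the actin-bundling villin gene Vil1 by 2.78 ± 0.33 and the pentraxin gene Ptx3 by 2.80 ± 0.45 on the log2 scale. Gdf6, a ligand of the BMP family, rose by 2.51 ± 0.43, the LIM domain gene Fhl5 by 3.26 ± 0.37 and the adaptor gene Shc4 by 2.50 ± 0.28. Ptx3, Gdf6, Fhl5 and Shc4 averaged below 0.5 CPM in room air. The 10 genes from Rgs5 to Shc4 kept their calls in all 21 alternative settings.

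By the same measure the largest falls were those of Ankrd63, Cyp1a1, Nr4a3, Esr2 and Plvap. Plvap, which forms the diaphragms of endothelial fenestrae and caveolae (chromosome 8, 71497765 to 71511752), stood at 329.9, 330.04, 347 and 277 CPM in room air and 82.5, 67.9, 70.7 and 77 CPM in hypoxia. The lowest room air sample was more than 3 times above the highest hypoxia sample (-2.11 ± 0.15, edgeR adjusted p = 1.21e-07). Cyp1a1, the cytochrome that the aryl hydrocarbon receptor induces (chromosome 9, 57687928 to 57703824), went from 9.86, 11.6, 11.5 and 13.1 to 0.974, 0.738, 1.41 and 2.31 CPM (-3.05 ± 0.32). Ankrd63, an ankyrin repeat gene, fell from 21.2, 18, 13 and 16.7 to 1.08, 0.620, 0.249 and 3.36 CPM (-3.64 ± 0.53), and hypoxia 4 was the highest of its group.

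Esr2, the oestrogen receptor beta, stood at 7.48, 8.65, 7.10 and 7.22 CPM in room air and 1.84, 1.09, 1.29 and 2.11 CPM in hypoxia (-2.27 ± 0.23). Slc16a9, of the monocarboxylate transporter family, went from 185, 146, 155 and 136 to 46.8, 51.3, 52.5 and 62.5 CPM (-1.55 ± 0.12). Both stood apart between groups by more than the spread within either. Syt15 of the synaptotagmin family (-2.07 ± 0.20), the scavenging chemokine receptor Ackr4 (-1.90 ± 0.32), the sphingosine-1-phosphate receptor S1pr5 (-1.64 ± 0.30) and the gastrin-releasing peptide gene Grp (-1.72 ± 0.29) also fell. Myzap, a junction protein of endothelium and heart, had one of the 10 smallest p-values, at 197, 195, 212 and 221 CPM in room air and 92.8, 111, 104 and 118 CPM in hypoxia (-0.95 ± 0.08).

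**Figure D2:**
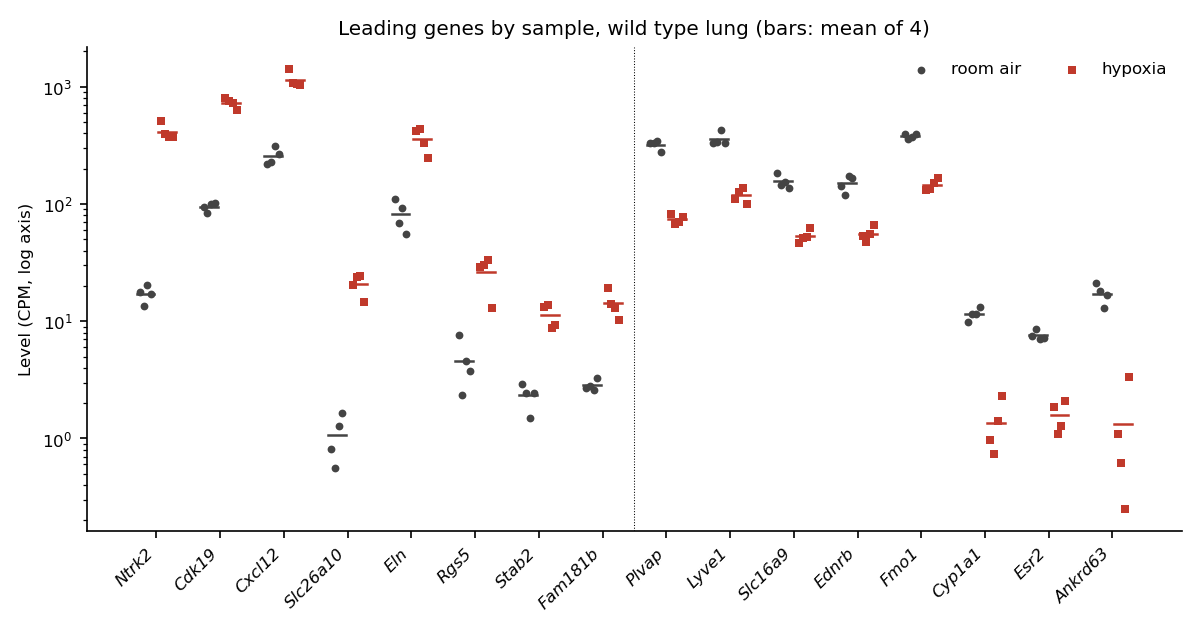
CPM of each sample on a log axis for 8 genes that rose (left) and 8 that fell (right) in wild type lung, room air against hypoxia; bars mark the mean of the 4 samples. The 2 clouds of points are separate for each gene shown, with hypoxia above room air on the left and below it on the right. Most of these genes were taken from the largest changes without overlap, so the separation follows from that choice.

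In absolute terms, large shifts in CPM were found in genes of several roles, among them the kinase gene Cdk19 described above. Scd1, the desaturase that makes monounsaturated fatty acids and is active in type II cells, stood at 2586, 2164, 2471 and 1273 CPM in room air and 5312, 3777, 3886 and 3827 CPM in hypoxia (0.98 ± 0.20). Room air 4 was lowest and hypoxia 1 highest, and the groups did not overlap. Sema3c, a secreted semaphorin, went from 670.4, 483, 866 and 663 to 1240.1, 1181, 1652 and 1246 CPM (0.99 ± 0.14), and Sparcl1, a matricellular relative of Sparc, from 759.5, 669, 752 and 865 to 1387, 1602, 1379 and 1147 CPM (0.86 ± 0.10). Lipe, the hormone-sensitive lipase, rose by 0.98 ± 0.13 while the adipocyte hormone gene Adipoq read -0.37 ± 0.47 and did not pass (adjusted p = 0.782).

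HIF target genes held several calls after 28 days. Of 28 members tested outside glycolysis 5 rose and 1 fell, 21.4% against 4.98% over all genes, with a median log2 fold change of 0.19, and of 20 genes of glycolysis and glucose uptake 2 rose and 0 fell, with a median of 0.19 against -0.01 over all genes. Without hypoxia 1, 2 or 3 or room air 2 there were 3 rises in the first list, and in the second there was 1 without hypoxia 1 and there were 4 without hypoxia 4. The 10 genes of HIF subunits and oxygen sensors included 0 called members by edgeR, 2 at an unadjusted p under 0.05, 1 by DESeq2 and 0 by limma voom. Their leading genes, Hif1a (0.09 ± 0.08) and Epas1 (-0.54 ± 0.18, adjusted p = 0.114), did not pass, and Epas1 passed in 3 of the 21 alternatives.

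The promoter windows of 3 of the called genes are printed because they show the short sequence that HIF recognises, and that of Cyp1a1 is set beside them for the receptor it answers to. Each is the RefSeq window of GRCm38.p6 from 250 bases before to 50 after the annotated start, read 5′ to 3′ on the strand of the gene, and capitals mark ACGTG or GCGTG or, where the match is on the other strand, CACGT or CACGC. Ankrd37 lies at chr8:45999801-46000100 on the minus strand, Bnip3 at chr7:138909457-138909756 on the minus strand, Ldha at chr7:46845554-46845853 on the plus strand and Cyp1a1 at chr9:57697363-57697662 on the plus strand.
Ankrd37: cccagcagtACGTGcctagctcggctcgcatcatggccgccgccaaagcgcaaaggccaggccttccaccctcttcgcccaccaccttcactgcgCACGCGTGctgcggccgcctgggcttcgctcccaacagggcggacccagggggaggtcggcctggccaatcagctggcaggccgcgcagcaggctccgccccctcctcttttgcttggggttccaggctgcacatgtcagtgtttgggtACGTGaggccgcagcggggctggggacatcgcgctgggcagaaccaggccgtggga
Bnip3: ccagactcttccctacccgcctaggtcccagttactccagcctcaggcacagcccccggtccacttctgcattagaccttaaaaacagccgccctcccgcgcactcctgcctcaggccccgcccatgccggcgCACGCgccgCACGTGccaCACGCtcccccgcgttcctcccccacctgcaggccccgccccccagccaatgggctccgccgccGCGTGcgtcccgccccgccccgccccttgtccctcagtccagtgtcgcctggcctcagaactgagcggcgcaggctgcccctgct
Ldha: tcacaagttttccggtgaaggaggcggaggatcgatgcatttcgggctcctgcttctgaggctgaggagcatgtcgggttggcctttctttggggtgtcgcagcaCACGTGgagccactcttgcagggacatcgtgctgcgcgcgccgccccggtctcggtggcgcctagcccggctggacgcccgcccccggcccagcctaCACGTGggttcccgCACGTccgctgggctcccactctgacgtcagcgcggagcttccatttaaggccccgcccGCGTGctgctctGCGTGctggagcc
Cyp1a1: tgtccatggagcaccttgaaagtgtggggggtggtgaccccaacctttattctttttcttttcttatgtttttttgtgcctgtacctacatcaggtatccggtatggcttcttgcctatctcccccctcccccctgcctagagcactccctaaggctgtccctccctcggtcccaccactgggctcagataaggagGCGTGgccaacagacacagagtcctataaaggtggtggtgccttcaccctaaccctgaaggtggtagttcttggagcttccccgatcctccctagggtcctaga
The windows hold 4, 5, 7 and 1 matches, counting both strands. CACGTG is read on both strands and so counts as a pair; Bnip3 has 1 such pair and Ldha has 2. A match is a description of the letters and not a binding site: ACGTG or GCGTG occurs in 43.8% of 32851 windows and in 63.7% of the 12269 tested genes with a window. Of the 7 genes called higher in the HIF and glycolysis lists 6 had a window, and 6 held the core. Of the 35 tested members with a window that were not called higher, 31 held it as well, and of all 306 genes called higher with a window 173 did, or 56.5%.

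Ankrd37, an ankyrin repeat gene that HIF induces, stood at 3.57, 3.81, 4.41 and 2.77 CPM in room air and at 50.1, 27.8, 7.18 and 7.43 CPM in hypoxia. All hypoxia samples were above all room air samples, but hypoxia 1 and 2 were far above 3 and 4 (2.69 ± 0.52, edgeR adjusted p = 0.00747), and the call was lost in the fit of the wild type samples alone. Its exons overlap Ufsp2 and Lrp2bp on the other strand, which read 0.10 ± 0.09 and 0.36 ± 0.48 and did not pass. Bnip3, which marks mitochondria for removal, went from 15.5, 10.4, 25.9 and 11.9 to 35.7, 25.9, 36.6 and 32.2 CPM (1.08 ± 0.21); room air 3, at 25.9 CPM, was as high as hypoxia 2, the lowest of its group. Ndrg1, a stress-response gene, rose in every sample, from 37, 33.3, 33.1 and 43.8 to 67.9, 71.5, 59.2 and 57.8 CPM (0.79 ± 0.11).

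Pfkl, the liver-type phosphofructokinase that commits sugar to glycolysis, stood at 57, 62.4, 57.2 and 65.8 CPM in room air and 121, 134, 91 and 95 CPM in hypoxia, without overlap (0.86 ± 0.11, edgeR adjusted p = 6.62e-05). Ldha, the lactate dehydrogenase, stood at 131, 117, 129 and 130.4 and 187, 204, 164 and 135 CPM, with hypoxia 4 close to room air (0.44 ± 0.10); its call was lost without hypoxia 1 (adjusted p = 0.0524). The glucose transporter gene Slc2a1 (0.17 ± 0.12), the kinase gene Pgk1 (-0.27 ± 0.19) and the prolyl hydroxylase gene Egln3 (0.37 ± 0.30) did not pass. Pgk1 averaged 4.46 CPM in room air. Vegfa, the main growth factor of vessels, was tightly grouped at 781, 764, 776 and 769 CPM in room air and 645, 658, 634 and 637 CPM in hypoxia, a small fall (-0.26 ± 0.07, adjusted p = 0.0302) whose call was lost in 11 of 21 alternatives, including without hypoxia 1, hypoxia 2, hypoxia 3, hypoxia 4, room air 1, room air 2 or room air 4.

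Among the matrix lists, elastic fibres held the largest share of rises. Of 22 genes of elastic fibres and lysyl oxidases tested 9 rose and 0 fell by edgeR (1 fell at an unadjusted p under 0.05 and by DESeq2, 0 by limma voom), with a median of 0.32 against -0.01 over all genes, and the groups did not overlap for 10 upward and 1 downward. Eln, the elastin gene, stood at 110.2, 69.4, 91.8 and 55.4 CPM in room air and 419, 436, 331 and 248 CPM in hypoxia, so that the lowest hypoxia sample was more than 2 times the highest room air sample (2.14 ± 0.23, edgeR adjusted p = 4.19e-05). Lox, which cross-links elastin and collagen, went from 39, 34.2, 59.3 and 30.6 to 119, 99.9, 90.3 and 108 CPM (1.37 ± 0.16). Room air 3 was the highest control for Lox and still lay below every hypoxia sample.

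The microfibril gene Mfap4 stood at 124, 132, 158 and 198 CPM in room air and 381, 343, 342 and 533 CPM in hypoxia (1.39 ± 0.16), highest in hypoxia 4. Fbln2, an elastic fibre fibulin, went from 27.5, 26.3, 16.9 and 19.5 to 49.1, 50.7, 51.7 and 39 CPM (1.06 ± 0.15). Both were without overlap. The smaller rises of Loxl1 (0.61 ± 0.13) and Loxl2 (0.64 ± 0.12), lysyl oxidase relatives, and of the fibrillin gene Fbn1 (0.50 ± 0.13) and Ltbp1 (0.35 ± 0.09), named after their values were seen, and the call of Mfap5 (0.41 ± 0.12) complete the 9. The Fbn1 call was lost without hypoxia 1, hypoxia 2, room air 3 or room air 4 (adjusted p up to 0.0951), the Ltbp1 call without hypoxia 1, hypoxia 2, room air 1 or room air 4 (up to 0.0898), and the Mfap5 call in 14 of 21 alternatives.

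Basement membrane genes rose in 6 of 23 members tested and fell in 0, with a median of 0.20. Col4a1 and Col4a2, the paired chains of type IV collagen that lie head to head on chromosome 8, rose together: Col4a1 from 1063, 1155, 947 and 1064 to 1985, 2084, 1871 and 1798 CPM (0.87 ± 0.10). Col4a2 went from 731, 872, 649 and 746 to 1228, 1286, 1114 and 1162 CPM (0.68 ± 0.11). Their annotated exons overlap on opposite strands, and the strand setting of the counting is not given. How reads in the shared bases were assigned or set aside is therefore not known. Lama1, the laminin alpha 1 chain, had the largest change of the list, from 5.30, 4.90, 4.19 and 3.34 to 15.3, 16.4, 13.4 and 11.5 CPM (1.66 ± 0.24), and Lamc3, a laminin gamma chain, rose by 0.96 ± 0.17. Sparc, a collagen-binding glycoprotein, rose by 0.45 ± 0.09, a call lost in the fit of the wild type samples alone.

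Of 20 interstitial collagen and small proteoglycan genes 4 rose and 0 fell, with a median of 0.19; 1 was called without hypoxia 1 and 2 without room air 1. Col15a1, a collagen next to basement membranes, stood at 13.8, 13.5, 7.63 and 10.1 CPM in room air and 23.3, 26.3, 19.3 and 22 CPM in hypoxia (0.98 ± 0.19). Col5a2 rose by 0.49 ± 0.11, with hypoxia 4 at 126 CPM inside the room air range of 119 to 131 CPM, and its call was lost without hypoxia 1 (edgeR adjusted p = 0.0527). The main fibrillar chains Col1a1 (0.44 ± 0.22, adjusted p = 0.353) and Col3a1 (0.40 ± 0.15, adjusted p = 0.153) did not pass. The biglycan gene Bgn (0.48 ± 0.12) was called, but not without hypoxia 1, hypoxia 4, room air 1 or room air 4 (adjusted p up to 0.0948). Col8a1 (0.64 ± 0.18) was called too, but not without hypoxia 1, hypoxia 2, hypoxia 3, hypoxia 4, room air 1 or room air 2 (adjusted p up to 0.114).

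Of 26 matrix proteases and inhibitors 6 rose and 0 fell, with a median of 0.25. Serpine2, which inhibits thrombin and plasmin, was the tightest, at 77.8, 68, 78.9 and 81.6 CPM in room air and 105, 104, 106 and 106 CPM in hypoxia (0.46 ± 0.07). Mmp2, the gelatinase that acts on basement membrane, went from 57.9, 51.1, 51.8 and 66.9 to 99.4, 100.1, 116 and 71.8 CPM, with hypoxia 4 the lowest of its group and still above room air (0.76 ± 0.13). Adamtsl2 rose by 0.85 ± 0.15 and the procollagen peptidase Adamts2 by 0.67 ± 0.13. The inhibitor gene Timp1 read 0.78 ± 0.23 and missed the threshold (edgeR adjusted p = 0.0544).

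Among 18 matricellular and adhesion proteins 0 rose and 2 fell, with a median of 0.13; 1 fell without hypoxia 1 or room air 4, and up to 3 rose with 1 sample left out (without room air 3). Thbs1, thrombospondin 1, an inhibitor of vessel growth that also activates latent TGF-beta, stood at 677, 563, 599 and 396 CPM in room air and 322, 343, 266 and 212 CPM in hypoxia, without overlap (-0.97 ± 0.18). The fibronectin gene Fn1 (0.61 ± 0.19, adjusted p = 0.0836) and the tenascin gene Tnc (0.63 ± 0.18, adjusted p = 0.0587) did not pass by edgeR; Fn1 passed in 5 and Tnc in 6 of 21 alternatives. The vitronectin gene Vtn fell (-0.57 ± 0.13), a call lost without hypoxia 1 or room air 4 (adjusted p up to 0.0572).

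Mural cells, the smooth muscle and pericytes around vessels, showed rises among both pericyte and contractile genes. Of 15 pericyte genes 5 rose and 0 fell, with a median of 0.21. Besides Rgs5 and Lamc3, which the basement membrane list also holds, Higd1b, a pericyte gene, went from 22.2, 20.8, 22.5 and 31.9 to 44.9, 57.1, 52.4 and 30.7 CPM (0.92 ± 0.16). Hypoxia 4 at 30.7 CPM fell inside the room air range for Higd1b, where room air 4 was highest. The receptor gene Pdgfrb, which defines pericytes, read 0.21 ± 0.17 and did not pass (edgeR adjusted p = 0.609).

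Of 20 contractile genes of smooth muscle 4 rose and 0 fell, with a median of 0.13. Itga7, the laminin-binding integrin of muscle, stood at 29.4, 29.2, 21 and 16.6 CPM in room air and 55.7, 59.2, 48.6 and 38.9 CPM in hypoxia (1.06 ± 0.16). Myl9, the regulatory myosin light chain, rose by 0.55 ± 0.11, and Pcp4l1 by 0.57 ± 0.12. The list's abundant defining genes Acta2 (0.50 ± 0.16, adjusted p = 0.0766), Tagln (0.31 ± 0.13, adjusted p = 0.222) and Myh11 (0.28 ± 0.13, adjusted p = 0.275) did not pass by edgeR, and Acta2 passed in 4 of 21 alternatives. The list's summed level was 1974 to 2523 CPM in room air and 2306 to 2688 CPM in hypoxia, so the ranges overlap. Cald1 (0.55 ± 0.14) was called, but not without hypoxia 1, hypoxia 3, hypoxia 4 or room air 4 (adjusted p up to 0.0724). Of 20 fibroblast genes 2 rose and 0 fell, with a median of 0.01; 1 rose without hypoxia 1, 2 or 3 or room air 1, 2 or 3. They included Gpx3, a secreted glutathione peroxidase, from 429.6, 328, 479 and 379.8 to 599.6, 593, 559 and 788 CPM (0.65 ± 0.12).

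Endothelial genes changed in both directions. The pan-endothelial junction genes Pecam1 (977 to 1029 CPM in room air, 966 to 1204 CPM in hypoxia) and Cdh5 (859 to 1022 and 889 to 1001 CPM) did not pass (0.14 and -0.02 on the log2 scale). Of 24 general endothelial genes 3 rose and 3 fell, with a median of -0.01; without room air 2 there was 1 rise. Besides Plvap, Eng, the TGF-beta coreceptor endoglin, fell from 379, 483, 407 and 332 to 201, 199, 182 and 269.5 CPM (-0.91 ± 0.15), and Kdr, the main VEGF receptor, fell as well (-0.48 ± 0.10). Emcn, the surface mucin endomucin, rose from 68.7, 57.3, 59 and 70.1 to 134, 119, 162 and 79.2 CPM (0.95 ± 0.15), with hypoxia 4 the lowest of its group.

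Capillary genes fell more often than they rose: of 22 members 3 rose and 8 fell, with a median of -0.14. Ednrb, the endothelin B receptor that marks aerocytes, the capillary cells of gas exchange (chromosome 14, 103814625 to 103844402), stood at 141, 120.1, 174 and 168 CPM in room air and 53.8, 47.6, 55 and 66.2 CPM in hypoxia, less than any room air sample in each case (-1.44 ± 0.12, edgeR adjusted p = 5.49e-07). Fibin, an aerocyte gene, went from 56.5, 51.1, 67.9 and 69.7 to 18.8, 21.4, 19.3 and 33.5 CPM (-1.39 ± 0.18). The carbonic anhydrase gene Car4 fell (-0.57 ± 0.13) and the receptor gene Kit of general capillaries (-0.58 ± 0.10); the Car4 call was lost without hypoxia 1 (adjusted p = 0.0565). Sema3c, named above, was the largest rise of the list. With hypoxia 1 left out 5 members were lower, and leaving out any of hypoxia 1, 2 or 3 or room air 1, 2 or 4 left 1 higher. The apelin receptor Aplnr of general capillaries read -0.35 ± 0.20 and did not pass.

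Arterial and venous genes included Cxcl12 as the leading rise: of 21 members 5 rose and 3 fell, with a median of 0.27. Cxcl12, made by arterial endothelium and stroma (chromosome 6, 117168535 to 117181367), stood at 219, 230.3, 313 and 266 CPM in room air and 1417, 1082, 1062 and 1030.4 CPM in hypoxia, each hypoxia value more than 3 times each control (2.16 ± 0.13, edgeR adjusted p = 8.65e-09). Gja4, the arterial connexin 37, went from 36.5, 36.5, 39.2 and 36.5 to 95.5, 67.5, 59.9 and 48.2 CPM (0.87 ± 0.16); the room air samples were nearly equal and hypoxia 4 was lowest of its group. Efnb2, the arterial ephrin, fell from 222, 229, 251 and 198 to 94.2, 91.9, 129 and 139 CPM (-0.99 ± 0.16), without overlap. The arterial connexin 40 gene Gja5 (0.17 ± 0.10) and the venous factor Nr2f2 (0.31 ± 0.16) did not pass. The fall count was 1 without hypoxia 1, 2 or 4 or room air 3 or 4.

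Notch genes changed in opposite directions by member. Of 15 tested 3 rose and 2 fell, with a median of -0.12. Dll4, the Notch ligand of tip cells and arteries, stood at 79.7, 102, 53.3 and 84 CPM in room air and 21.7, 25.5, 26.2 and 39 CPM in hypoxia (-1.51 ± 0.22), with hypoxia 4 highest of its group and still below room air. Jag2, another Notch ligand, went from 22.7, 31.8, 31.3 and 35.4 to 54.7, 64.2, 58.4 and 61.3 CPM (0.98 ± 0.12). Of the Notch target genes Hey2 rose by 1.01 ± 0.22, whereas Hey1 read -0.65 ± 0.17, a fall whose call was lost without hypoxia 1, hypoxia 2, hypoxia 4, room air 2, room air 3 or room air 4 (edgeR adjusted p up to 0.126). The smooth muscle receptor Notch3 read 0.51 ± 0.22 (adjusted p = 0.258).

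Of 22 genes of VEGF, angiopoietin and apelin signalling 4 rose and 4 fell, with a median of 0.02; 2 rose without hypoxia 1 or 2 or room air 2. Vegfc, the lymphatic growth factor, went from 14.7, 17.3, 17.3 and 19.4 to 49.7, 61.7, 41.6 and 37 CPM (1.47 ± 0.14), higher in each hypoxia sample than in each control. Esm1, endocan, a secreted product of VEGF-stimulated endothelium, stood at 12.5, 11.7, 10.2 and 11.6 CPM in room air and 6.27, 4.81, 6.14 and 4.18 CPM in hypoxia (-1.12 ± 0.15). Ramp2, partner of the adrenomedullin receptor, fell (-0.54 ± 0.10). Its relative Ramp3, named after its values were seen, rose by 1.46 to 1.88 across the 21 alternatives and kept its call in all of them. The angiopoietin gene Angpt2 read -0.41 ± 0.13 and did not pass (edgeR adjusted p = 0.096).

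Lymphatic genes combined several rises with the fall of Lyve1: of 11 tested 4 rose and 1 fell, with a median of 0.28. Prox1, which specifies lymphatic identity, stood at 3.42, 2.79, 2.04 and 2.66 CPM in room air and 9.30, 9.51, 6.81 and 6.08 CPM in hypoxia (1.5 ± 0.20). Reln, reelin, went from 27.9, 26.6, 21.5 and 27.7 to 82.5, 86.5, 57.4 and 47.9 CPM (1.39 ± 0.16) and Mmrn1, multimerin, from 46.5, 32.8, 57.8 and 48.2 to 119.7, 116, 98.6 and 73 CPM (1.14 ± 0.17). In each of these 3 the groups were apart. Lyve1, the hyaluronan receptor of lymphatic endothelium that macrophages also carry, stood at 331, 339, 425 and 329 CPM in room air and 109.9, 127, 136 and 101 CPM in hypoxia, without overlap (-1.59 ± 0.16, edgeR adjusted p = 8.11e-06).

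**Figure D3:**
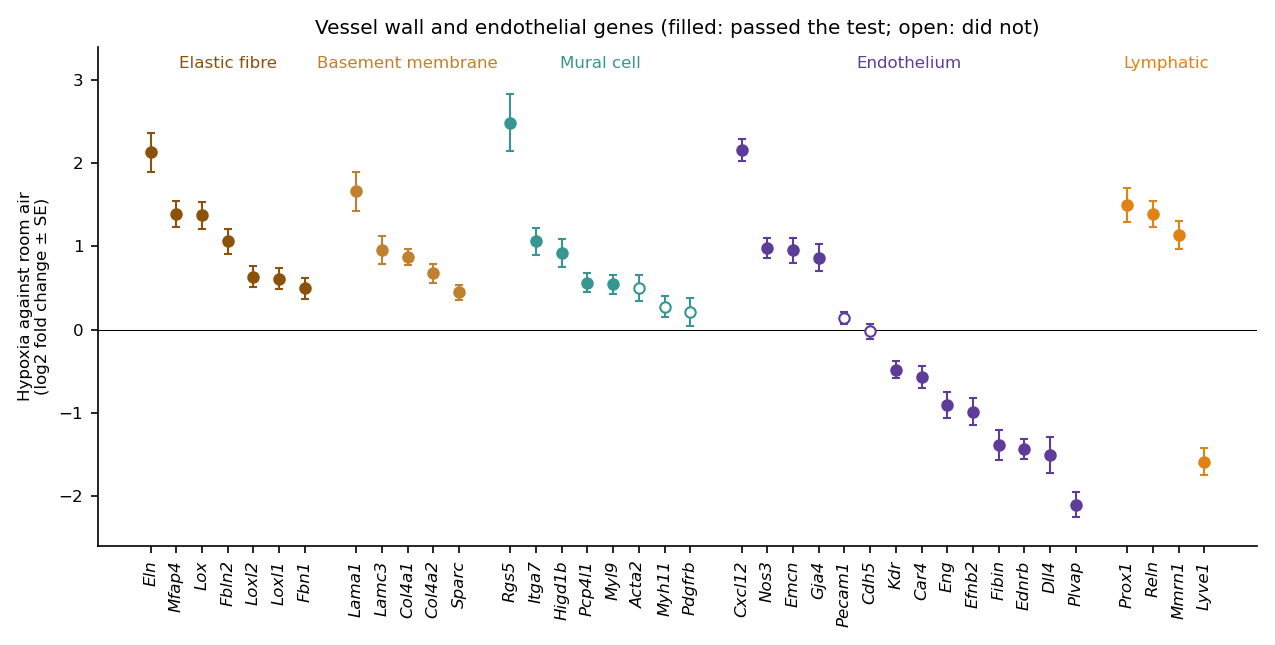
Log2 fold change of hypoxia over room air with its standard error for genes of the vessel wall, grouped by role; filled points passed the edgeR test and open points did not. The elastic fibre and basement membrane genes shown were drawn from the called rises and so lie above zero. Of all members tested in these lists, 6 of 22 and 6 of 23 were negative. The endothelial genes shown lie above and below zero, with Plvap at -2.11 and Cxcl12 at 2.16.

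BMP and TGF-beta genes held single large changes. Of 23 BMP and Id genes 1 rose and 2 fell, with a median close to zero. The rise was that of the ligand gene Bmp3 (0.37 ± 0.09), a call lost in 9 of 21 alternatives; without hypoxia 1 there were 0 rises and without room air 3 there were 2. Smad6, the inhibitor that BMP signalling induces, stood at 125, 123, 121 and 116 CPM in room air and 53.1, 51.8, 51.6 and 81.2 CPM in hypoxia, with hypoxia 4 highest of its group (-1.03 ± 0.12, edgeR adjusted p = 3.47e-05). Bmp6, an endothelial ligand, went from 115, 122, 101 and 112 to 52.6, 51, 53.1 and 68.9 CPM (-1.0 ± 0.13). The receptor gene Bmpr2 (-0.29 ± 0.16, adjusted p = 0.409) and the target Id1 (-0.34 ± 0.12, adjusted p = 0.134) did not pass. Of 15 TGF-beta genes 2 rose and 1 fell, with a median of 0.01: the ligand Tgfb3 (0.50 ± 0.09) and the receptor Tgfbr2 (0.40 ± 0.08) rose, Eng fell, and Tgfb1 read -0.21 ± 0.14.

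Vasoactive genes split evenly. Of 34 tested 4 rose and 4 fell, with a median of -0.02; 2 rose without room air 4. Nos3, the endothelial nitric oxide synthase, stood at 22.6, 27.4, 23.3 and 26.2 CPM in room air and 51.8, 55.9, 47.1 and 42.2 CPM in hypoxia, apart in all samples (0.98 ± 0.12). Its exons overlap Atg9b on the other strand, which rose too at a low level (1.68 ± 0.38, from 0.471 to 1.56 CPM on average), a gene named after its values were seen. Npr3, the clearance receptor of natriuretic peptides, fell from 164, 181, 369 and 172 to 51.2, 61.5, 103 and 92.9 CPM (-1.51 ± 0.30), with room air 3 at more than 2 times the other controls. Pde3a, a phosphodiesterase that cGMP inhibits, fell (-0.43 ± 0.08), whereas Pde5a, which degrades cGMP, read -0.09 ± 0.09. The constrictor gene Edn1 stood at 33.1, 25.2, 53.1 and 31.6 CPM in room air and 91.3, 52.5, 42.9 and 49.2 CPM in hypoxia; the groups overlap through room air 3 and the difference did not pass (0.74 ± 0.24, edgeR adjusted p = 0.104). It passed in 5 of 21 alternatives. Ednra, the constrictor receptor on smooth muscle, read -0.04 ± 0.10, and the converting enzyme gene Ace 0.34 ± 0.11 (adjusted p = 0.0739).

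Among 20 ion channel genes of pulmonary vessels 3 rose and 0 fell, with a median of 0.16. Trpv4, a calcium channel opened by stretch and swelling, stood at 5.19, 6.45, 3.01 and 7.87 CPM in room air and 19, 15.4, 16 and 18.3 CPM in hypoxia (1.56 ± 0.19), without overlap. Trpc6, the receptor-operated calcium channel of pulmonary artery smooth muscle, went from 60.3, 52.2, 71.6 and 70.2 to 80.3, 82.9, 86.8 and 87 CPM (0.41 ± 0.09), a call lost in the fit of the wild type samples alone. The potassium channel genes Kcna5 (1.05 ± 0.45, near 1 CPM at most) and Kcnk3 (-0.01 ± 0.13) did not pass.

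Of 29 mitogen genes 2 rose and 3 fell, with a median of 0.03; 1 fell without hypoxia 3 or 4, and 1 rose without hypoxia 1 or 3 or room air 1, 2 or 4. The binding proteins of insulin-like growth factors moved apart: Igfbp2 rose from 184, 191, 186 and 237 to 306, 417, 382 and 253 CPM (0.77 ± 0.14), and Igfbp3 fell from 60.0, 55.8, 65.3 and 59.1 to 27.1, 36.4, 33.2 and 14.2 CPM (-1.11 ± 0.21), with hypoxia 4 lowest. Igfbp4 and Igfbp6 were called lower too, calls lost in 8 and 10 of 21 alternatives. The growth factor genes Igf1 (0.89 ± 0.26, adjusted p = 0.0686) and Pdgfb (0.39 ± 0.18, adjusted p = 0.299) did not pass by edgeR, and Igf1 passed in 10 of 21 alternatives.

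T and natural killer (NK) cell genes were lower nearly throughout. Of 30 tested 0 rose and 10 fell by edgeR (0 and 20 at an unadjusted p under 0.05, 0 and 12 by DESeq2, 0 and 10 by limma voom), 29 had a negative log2 fold change, and the median was -0.64 against -0.01 over all genes; the groups did not overlap for 12, all lower in hypoxia. The list summed to 259 to 365 CPM in room air and 182 to 206 CPM in hypoxia. Gzma, the granzyme of cytotoxic cells, stood at 23.9, 41.7, 35.8 and 43.9 CPM in room air and 14.8, 13.7, 16.4 and 15.6 CPM in hypoxia, where room air 1 was the lowest control (-1.26 ± 0.19, edgeR adjusted p = 0.000387). Klrk1, the activating receptor NKG2D, went from 10.7, 17.9, 12.1 and 14.6 to 5.57, 5.79, 6.35 and 7.49 CPM (-1.13 ± 0.16). The NK receptor genes Klrb1c (-1.20 ± 0.22) and Ncr1 (-1.12 ± 0.24) and the chemokine gene Ccl5 (-0.89 ± 0.14) fell as well. The T cell receptor chain gene Cd3e read -0.64 ± 0.28 and did not pass (adjusted p = 0.25). Without hypoxia 1 or room air 2 the count was 5, and without hypoxia 2 or room air 4 it was 6.

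The NK cells' Klr family of lectin-like receptors, looked at after its values were seen, had 9 falls and 0 rises among 24 tested genes, with 22 negative and a median of -0.93. Klri2 (-1.29 ± 0.21), Klre1 (-1.27 ± 0.24), Klra7 (-1.48 ± 0.26) and Klrc1 (-1.31 ± 0.27) fell. These genes have near-identical copies, so the split of reads among them is uncertain.

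B cell genes were lower too, but the controls were uneven. Of 22 B and plasma cell genes 0 rose and 9 fell by edgeR (0 and 17 at an unadjusted p under 0.05, 0 and 15 by DESeq2, 0 and 17 by limma voom), with a median of -0.91, 20 negative values, and 4 members without overlap. Spib, a transcription factor of B cells and plasmacytoid dendritic cells, stood at 14.1, 22.1, 11.7 and 16.2 CPM in room air and 7.52, 5.55, 7.22 and 5.50 CPM in hypoxia (-1.33 ± 0.20), and the groups were apart. The kinase gene Blk stood at 13.7, 16, 6.77 and 15.8 CPM in room air and 7.46, 5.17, 6.39 and 4.21 CPM in hypoxia (-1.20 ± 0.26), with room air 3 inside the hypoxia range. The follicle-homing receptor gene Cxcr5 (-1.21 ± 0.29) was called, but not without hypoxia 3, hypoxia 4, room air 1 or room air 2 (adjusted p up to 0.0664). Without room air 3 there were 16 falls; without the other samples singly there were 2 (room air 2), 3 (hypoxia 4), 4 (hypoxia 2, room air 4), 5 (hypoxia 3, room air 1) or a count within 1.5 times of 9 (hypoxia 1).

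**Figure D4:**
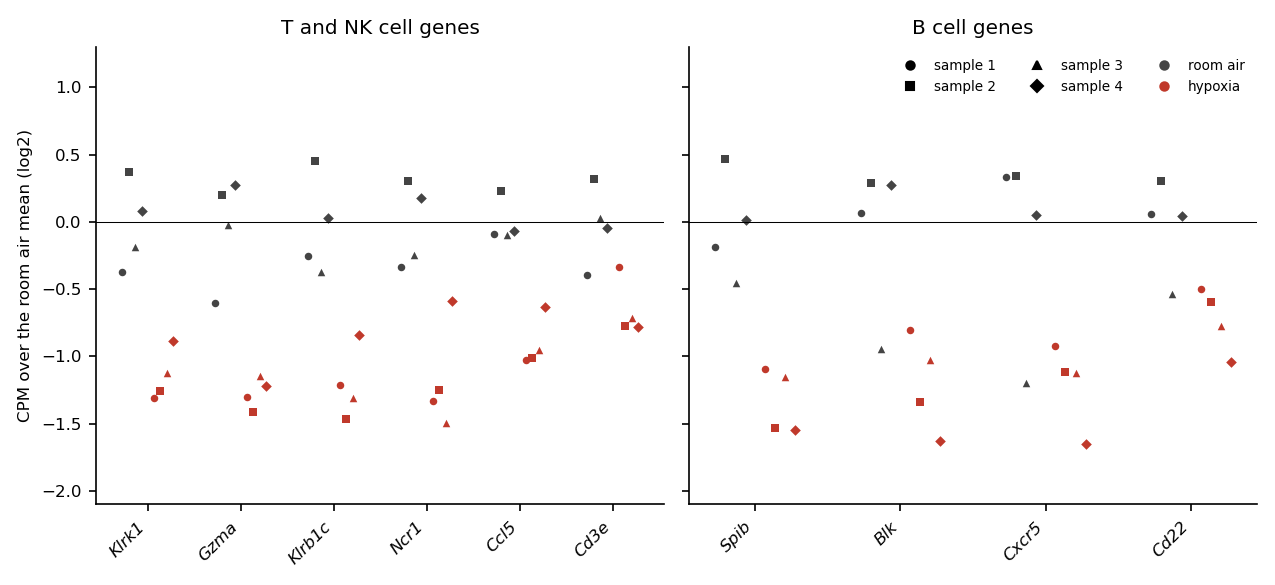
Log2 of each sample's CPM over the room air mean for 6 T and NK cell genes and 4 B cell genes; dark symbols are room air and red symbols hypoxia samples, and the shape gives the sample number. The hypoxia samples lie below zero for each gene, and room air 3 lies among them for Blk, Cxcr5 and Cd22.

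Of 37 chemokine genes tested 2 rose and 5 fell, 18.9% against 4.98% over all genes, with a median of 0.01; 3 fell without hypoxia 4 or room air 1 or 2. Besides Cxcl12, its scavenging receptor Ackr3 rose from 43.4, 37.8, 40.4 and 44.3 to 79.2, 81.7, 81.9 and 47.5 CPM (0.80 ± 0.15), where hypoxia 4 stood close to room air. Its signalling receptor Cxcr4, carried by leukocytes and capillary endothelium, fell from 88.2, 85.9, 57.8 and 102 to 30.4, 52.3, 52.8 and 39.6 CPM (-0.94 ± 0.19). Cx3cl1, the membrane-bound fractalkine, went from 56.6, 69.6, 54.2 and 57.2 to 32.2, 26.1, 25.7 and 32.9 CPM (-1.03 ± 0.13), without overlap.

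Myeloid and inflammatory genes were mixed. Of 23 cytokine and alarmin genes 5 rose and 0 fell, with a median of 0.29; 3 rose without hypoxia 1 or 3 or room air 1 or 2 and 2 without room air 4. Lcn2, the iron-binding lipocalin of neutrophils and epithelium, stood at 106, 98, 109 and 87.9 CPM in room air and 156, 175, 184 and 169 CPM in hypoxia (0.77 ± 0.10). Chil3, a chitinase-like protein of alveolar macrophages, went from 471, 499.7, 659.99 and 559.8 to 834, 897, 824 and 712 CPM (0.58 ± 0.11). Retnla, a resistin-like gene tied to lung remodelling, stood at 41.3, 34.8, 56.4 and 30.9 and 86.4, 70.7, 119 and 56.3 CPM (1.04 ± 0.26); hypoxia 4 lay at the level of room air 3 and the call was lost without hypoxia 1, hypoxia 3, room air 1, room air 2 or room air 4 (edgeR adjusted p up to 0.101). Il6 read 0.29 ± 0.68 at under 2 CPM.

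Alveolar macrophage genes had 1 rise and 1 fall of 17 (median 0.06), and monocyte and interstitial macrophage genes 0 rises and 2 falls of 21 (median -0.06); the 2 falls were 1 without hypoxia 3 or 4 or room air 4 and 4 without room air 3. Treml4, of patrolling monocytes, went from 9.47, 9.86, 12.8 and 9.85 to 4.98, 5.88, 3.53 and 5.0 CPM (-1.10 ± 0.19). Neutrophil genes had 1 rise of 15, Lcn2, with a median of 0.45; S100a9 stood at 663 CPM in hypoxia 2 and at 82.5 to 250 CPM in the other 7 samples. Of 16 genes of eosinophils, basophils and mast cells 0 rose and 1 fell, Kit, with a median of -0.28. Of 18 genes of MHC class II presentation 2 rose and 2 fell, with a median of 0.09. The rises were 0 without hypoxia 1 or 2 or room air 1, 1 without hypoxia 3 or room air 3, and 6 without hypoxia 4. Siglech of plasmacytoid dendritic cells fell from 6.71, 6.35, 7.10 and 8.29 to 3.46, 2.92, 4.07 and 2.63 CPM (-1.13 ± 0.21), as did Cd209a of dendritic cells (-0.81 ± 0.18), a call lost in the fit of the wild type samples alone. The class II regulator Ciita (0.76 ± 0.19) was called, but not without hypoxia 1, hypoxia 2 or room air 1 (edgeR adjusted p up to 0.0718).

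Interferon-stimulated genes leaned upward: of 28 tested 3 rose, 0 fell and 25 were positive, with a median of 0.27. Oas2, an antiviral oligoadenylate synthetase, stood at 14.4, 9.30, 12.7 and 7.58 CPM in room air and 21.2, 19.8, 38.2 and 30.0 CPM in hypoxia (1.32 ± 0.21), and the guanylate-binding protein gene Gbp4 rose by 0.88 ± 0.19, without overlap in either. Of 23 complement and coagulation genes 2 rose and 0 fell, with a median of 0.08: C6 (0.31 ± 0.07), not called without hypoxia 1 or hypoxia 3, and the thrombomodulin gene Thbd (0.45 ± 0.11), not called without hypoxia 3, hypoxia 4, room air 1, room air 2 or room air 4 (edgeR adjusted p up to 0.0762).

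Epithelial lists held up to 3 calls each. Of 21 alveolar type II genes 3 rose and 0 fell, with a median of 0.17; 1 rose without hypoxia 3 or room air 1 or 4. The share called was 14.3% in this list and 11.8% in each of the type I and airway lists. It was 5.26% in the motile cilia list, against 4.98% over all genes. Scd1 led, and the surfactant protein D gene Sftpd read 0.42 ± 0.10, a call lost without hypoxia 2, hypoxia 3, room air 1 or room air 4 (edgeR adjusted p up to 0.0927). The surfactant genes Sftpc (0.06 ± 0.11) and Sftpa1 (0.12 ± 0.09) did not pass. Type I genes had 1 rise, Igfbp2, and 1 fall, Vegfa, of 17 (median 0.02); Ager read -0.04 ± 0.08 and the water channel gene Aqp5 0.02 ± 0.07. Of 17 airway secretory and basal genes 0 rose and 2 fell (median -0.10), and of 19 motile cilia genes 0 rose and 1 fell (median -0.11). The airway falls were 0 without hypoxia 1 or 2 and 1 without hypoxia 3 or room air 2 or 4. Scgb1a1 of club cells read -0.12 ± 0.14 and Foxj1 of ciliated cells -0.26 ± 0.17; neither passed. The carbonyl reductase gene Cbr2 of club cells (-0.45 ± 0.12) was called, but not without hypoxia 1, hypoxia 2, hypoxia 3 or room air 4 (adjusted p up to 0.151).

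Of the enzymes that handle foreign compounds, those that changed fell. Of 20 lung monooxygenase and detoxification genes 0 rose, 4 fell and 19 were negative, with a median of -0.25; 9 fell without hypoxia 4. Fmo1, a flavin monooxygenase (chromosome 1, 162829561 to 162866610), stood at 398, 358, 373 and 394 CPM in room air and 133, 133, 151 and 166 CPM in hypoxia (-1.38 ± 0.09, edgeR adjusted p = 9.55e-09), the most clearly separated of them by p. Cyp4b1, a cytochrome of club cells and aerocytes, went from 543, 630.4, 546 and 536 to 269, 310.2, 282 and 356 CPM (-0.89 ± 0.08), the esterase gene Ces1f fell (-1.12 ± 0.16) as did Cyp2d22 (-0.54 ± 0.09). Fmo2, a monooxygenase of the same family, read -0.15 ± 0.11 and did not pass.

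Of 13 genes of the aryl hydrocarbon receptor pathway 0 rose and 3 fell, with a median of -0.15: Cyp1a1, Fmo1 and Ugt1a6a (-0.35 ± 0.10), whose call was lost in 15 of 21 alternatives and which shares exons with its family. The receptor's repressor Ahrr, at under 1 CPM, and Cyp1b1 (0.45 ± 0.17, edgeR adjusted p = 0.163) did not pass. The core that this receptor reads, TNGCGTG, contains GCGTG and occurs in 5.07% of windows; neither of the 2 called genes with a window, Cyp1a1 among them, holds it between 250 bases before and 50 after the start.

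Immediate early genes leaned lower: of 20 tested 0 rose, 5 fell and 19 were negative, with a median of -0.60; 3 fell without hypoxia 1 or room air 4. Atf3, a stress-induced transcription factor, stood at 35.1, 31.6, 26.2 and 41 CPM in room air and 7.25, 15.7, 13.3 and 10.8 CPM in hypoxia (-1.51 ± 0.20). Nr4a3, an orphan nuclear receptor, went from 5.74, 8.87, 6.56 and 5.01 to 0.974, 1.33, 1.45 and 1.02 CPM (-2.44 ± 0.36) and its relative Nr4a2 from 15.7, 13.1, 10.4 and 14 to 6.17, 7.12, 7.76 and 8.04 CPM (-0.88 ± 0.17). All 3 were apart between groups. Jun fell (-0.71 ± 0.16), a call lost without hypoxia 1 or room air 4 (edgeR adjusted p up to 0.062), while Fos stood at 98.5, 87.7, 31.8 and 94.3 CPM in room air and 34.5, 97.7, 30.8 and 33.7 CPM in hypoxia, overlapping, and did not pass (-0.68 ± 0.59).

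Other programmes showed 0 to 3 calls each by edgeR. Among 28 cell division genes 0 were called although 24 were positive, with a median of 0.33 (7 at an unadjusted p under 0.05, 2 by DESeq2, 0 by limma voom); the proliferation marker Mki67 stood at 52, 48.9, 58.7 and 50.8 CPM in room air and 83.8, 70.0, 60.4 and 50.6 CPM in hypoxia. Of 22 genes of protein folding in the endoplasmic reticulum and of 17 heat shock genes 0 were called, with medians of -0.01 and -0.22 (2 and 0 at an unadjusted p under 0.05, 0 by DESeq2 and limma voom), and the chaperone gene Hspa5 read -0.02 ± 0.13. Of 24 respiratory chain genes 1 rose, 4.17% against 4.98% over all genes. It was Ndufa4l2 (0.43 ± 0.11), a call lost without hypoxia 2, hypoxia 3, room air 2 or room air 3. Of 19 integrated stress response genes 2 rose and 1 fell, Atf3, with a median of 0.04, and the rises were 0 without room air 4 and 1 without hypoxia 1 or 3 or room air 1 or 2; the pseudokinase gene Trib3 rose by 0.86 ± 0.20, a call lost without room air 4 (adjusted p = 0.0611). Arginine, polyamine and nitric oxide substrate genes (16), neuroendocrine and nerve genes (14), erythroid genes (11) and heart muscle genes (18) had 0 called members each by edgeR. At an unadjusted p under 0.05 these 4 lists had 3, 2, 2 and 5 members, DESeq2 called 1 heart gene and limma voom 0. Arg1 read 0.07 ± 0.32.

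Clock genes had 1 called member of 18, Ciart (-1.25 ± 0.35), lost without hypoxia 1, hypoxia 2, hypoxia 3, hypoxia 4 or room air 4 (edgeR adjusted p up to 0.22). Dbp stood at 38, 54.5, 35.6 and 159.9 CPM in room air and 10.7, 13.8, 28.9 and 61 CPM in hypoxia, so that room air 4 and hypoxia 4 were the high samples of their groups. Wnt (1 rise of 28), antioxidant (Gpx3 of 22), lipid uptake and sterol (Scd1 of 22), glucocorticoid and metallothionein (1 rise of 16) and adipocyte (Lipe of 14) lists had 0 falls. The platelet list (Thbs1 of 17) and the list of thymus, pancreas and liver genes (Cd1d1 of 7) had 1 fall and 0 rises each. The share called was 5.56% in the clock list, 3.57% in the Wnt list and 4.55% in the antioxidant and the lipid lists. It was 6.25% in the glucocorticoid, 7.14% in the adipocyte and 5.88% in the platelet list, against 4.98% over all genes. In the list of thymus, pancreas and liver genes 1 member of 7 makes 14.3%.

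Genes of skeletal muscle fell in 3 of 14 members by edgeR (0 by DESeq2 and limma voom), and the calls changed with single samples. Myh2, a fast myosin heavy chain, stood at 49.4 CPM in room air 1 and at 0 to 1.61 CPM in the other 7 samples, and the list summed to 46.7 to 1887 CPM in room air and 33.1 to 54.5 CPM in hypoxia. Without room air 1 there were 0 called members, likewise without any single hypoxia sample, and there were 13 without room air 3 and 10 without room air 4. Of heart muscle, Myh6 stood at 87.9 to 199 CPM in room air and 68.9 to 144 CPM in hypoxia. The heart muscle list summed to 690 to 2658 CPM in room air and 601 to 853 CPM in hypoxia, so the room air samples were uneven there too.

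**Figure D5:**
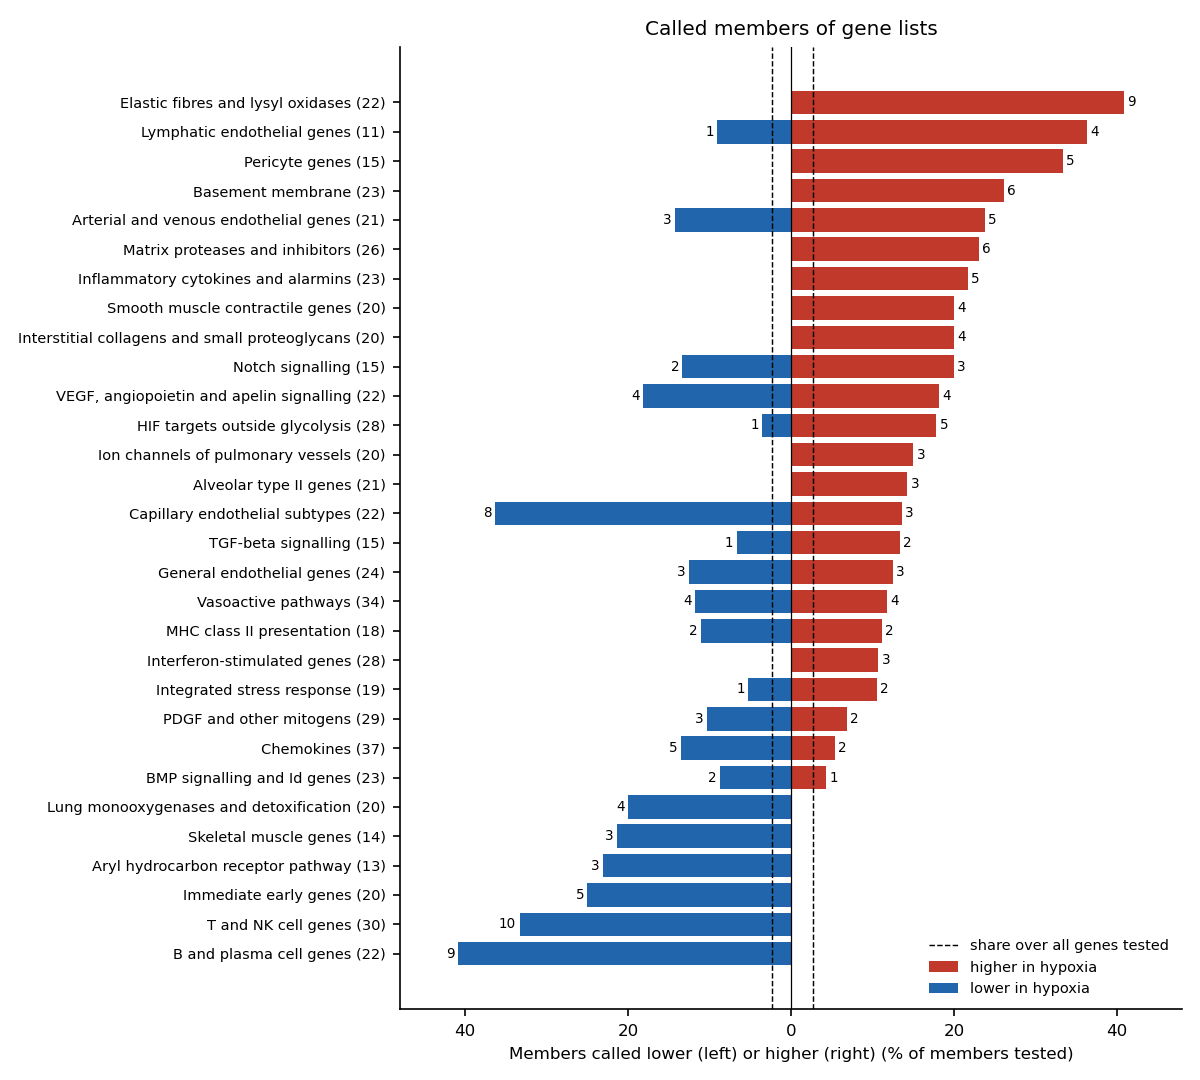
Percent of tested members called higher (right) and lower (left) in hypoxia for each gene list with at least 3 called members; dashed lines mark the share over all genes tested, 2.67% higher and 2.31% lower. Lists of elastic fibres, lymphatic endothelium and pericytes reach furthest to the right and lists of B cells, capillary endothelium and T and NK cells furthest to the left; lists share members.

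In Arg2 knockout lungs 17% of the same genes were called, against 4.98% in wild type. The wild type count of 785 was 1215 without room air 3 and hypoxia 4, so the 2 shares depend on single samples. Of the 785 genes, 550 were also called in the knockout in the same direction and 5 in the opposite direction. The size of the response was compared between genotypes by the interaction in the same fit. Of the 785 genes called in wild type 26 differed in response, 13 with a larger change in wild type and 13 with a larger one in the knockout. Over all genes tested 0.501% had a called difference. These shares cannot be weighed against each other, because the 785 were chosen on the wild type change that enters the difference. Cdk19 changed by 2.95 ± 0.13 in wild type and 2.00 ± 0.12 in the knockout (edgeR adjusted p of the difference = 0.012). Smad6 changed by -1.03 ± 0.12 in wild type and -0.19 ± 0.12 in the knockout (adjusted p of the difference = 0.0362), and Epha4, an ephrin receptor, by 1.00 ± 0.12 in wild type and 0.18 ± 0.12 in the knockout. The fitted changes had opposite signs for 12 of the 26, among them Tiam1, an activator of the GTPase Rac, at 0.81 ± 0.11 in wild type and -0.30 ± 0.11 in the knockout, and Hey1 at -0.65 ± 0.17 in wild type and 0.67 ± 0.17 in the knockout. Fbln2 and Ndrg1 rose more in the knockout, Fbln2 by 1.06 ± 0.15 in wild type and 2.24 ± 0.15 in the knockout and Ndrg1 by 0.79 ± 0.11 in wild type and 1.58 ± 0.11 in the knockout. For Ntrk2 the changes were 4.60 ± 0.22 and 3.4 ± 0.20, and the difference did not pass (adjusted p = 0.0579); for Plvap they were -2.11 ± 0.15 and -2.31 ± 0.15 (adjusted p = 0.738). Epha4 and Tiam1 were named after their values were seen.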

How the data were processed

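RNA of whole lung was sequenced, and the deposited files give whole-number counts of reads per gene for each library. Per the submitters' processing notes the authors used Trim Galore, TopHat2, HTSeq and mm10. Tool versions were not given in the sources used here, nor was the strandedness setting. The lettered libraries 2A and 2B, and 3A and 3B, were summed because they differed from each other less (chi-square per degree of freedom 1.52 and 2.06 at equal depth) than room air samples of different numbers (at least 6.64); the labels do not say what the letters mean. The 5 lines of each file that name no gene were left out. No label says that samples of a group came from separate animals, so the p-values reflect only how these samples vary.

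Of 24062 genes, 15766 passed edgeR's filterByExpr (minimum count 10, minimum total 15), 8296 did not, and 5 more (Y-linked genes, Xist and Tsix) were set aside from the counts of calls, which left 15761. Counts were scaled by TMM and fitted over all 16 samples (12 residual degrees of freedom) with glmQLFit and glmQLFTest of edgeR 4.0.16 in R 4.3.3, with Benjamini-Hochberg adjustment over all genes. Standard errors come from the estimate and its F value. CPM values are TMM-scaled, and values after ± are standard errors of log2 fold changes. A count of 0 allows a level of up to 0.0696 to 0.315 CPM by sample (3 counts; counting error only). Alternatives used DESeq2 1.42.0, limma 3.58.1 and samples left out.

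Named genes were the 20 largest rises and 20 largest falls among called genes with a mean of at least 1 CPM in the higher group and no overlap between groups, the called genes with the 10 smallest p-values and the 10 largest differences in mean CPM, the 4 called members with the smallest p of each of 60 gene lists, and defining genes of the lists whatever their result. The members and lists were chosen with earlier results of these data known; lists share members. Gene positions are GENCODE annotations of GRCm38, and 22550 symbols matched RefSeq directly, 1352 by an older name and 160 not at all. On counts simulated from these samples, the test recovered 58.2% of 98 genes changed by 0.75 and 84.5% of 97 changed by 1.5 on the log2 scale, with 5 false calls among 15621 genes. Some items are not reported here.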

Additional observations from a re-analysis of the deposited data

Results flagged for a closer look

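A sample stood apart from the other 3 of its group for 35 of 394 gene and group combinations looked at, by the gap to its neighbour against the range of the group; chance gives about 1 in 20. Hypoxia 4 and room air 3 supplied 7 and 8 of these. The combinations share the same samples and are not independent, so their count was not tested against that rate.

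In vessel and matrix genes, hypoxia 4 stood highest for Vtn at 12.8, Smad6 at 81.2, Bmp6 at 68.9 and Pde3a at 84.4 CPM, and lowest for Ackr3 at 47.5 and Shc4 at 1.58 CPM. Among the other hypoxia samples, Sema3c was high in hypoxia 3 at 1652 CPM, Cxcl12 in hypoxia 1 at 1417 CPM and Scd1 in hypoxia 1 at 5312 CPM. Room air 3 was the high control for Lyve1 at 425, Npr3 at 369, Gja4 at 39.2 and Hey1 at 98.5 CPM. Room air 4 was the high control for Higd1b at 31.9 and Igfbp2 at 237 CPM and the low one for Pde3a at 94.8 CPM. Acta2 of smooth muscle was high in room air 1 at 224 CPM.

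In leukocyte genes, Ccl5 was high in room air 2 at 15.3 CPM and in hypoxia 4 at 8.42 CPM, Cd3e in hypoxia 1 at 2.76 CPM, Treml4 in room air 3 at 12.8 CPM, and the neutrophil gene S100a9 in hypoxia 2 at 663 CPM against 152 to 212 CPM in the other hypoxia samples. Il6 was high in room air 1 at 1.08 CPM, and Arg1 was low in room air 3 at 1.08 CPM.

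The muscle genes Acta1 (319 CPM) and Myh2 (49.4 CPM) were high in room air 1 alone of its group, as was Egln3 at 2.47 CPM. The clock genes Dbp (159.9 CPM) and Ciart (17.3 CPM) and the club cell gene Cbr2 (3340.1 CPM) were high in room air 4. Cyp4b1 was high in room air 2 at 630.4 CPM, where Ldha was low at 117 CPM, and the chaperone gene Hspa5 was high in room air 3 at 784 CPM. Fos was low in room air 3 at 31.8 CPM and high in hypoxia 2 at 97.7 CPM.

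The response to hypoxia differed between genotypes by the interaction in edgeR for 8 of the genes that the naming rule took. The change in the knockout minus that in wild type was -0.95 for Cdk19, 0.78 for Ndrg1, 1.18 for Fbln2, 0.83 for Smad6, 1.31 for Hey1 and 2.37 for Ciart on the log2 scale. Id1 (0.86) and Hspa5 (1.08) differed too, although neither passed in wild type lung. Outside the rule, the difference was -0.82 for Epha4 and -1.11 for Tiam1.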

How the results depend on the processing

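The count of called genes (785) was 769 with the A libraries alone for numbers 2 and 3, 642 with the B libraries alone, 779 with DESeq2's size factors, 811 with upper quartile scaling, 742 without the filter on low counts, 819 by limma voom, 1135 by DESeq2 (781 shared), 400 in a fit of the wild type samples alone (390 shared), and 484 (without hypoxia 1, 479 shared) to 1051 (without room air 3) with 1 sample left out. It was 1215 without room air 3 and hypoxia 4 (673 shared). Alternatives chosen after seeing the data gave 782 without ribosomal RNA and 646 without room air 3 and hypoxia 1. The 93 list members that rose were 56 in the fit of wild type samples alone and 65 to 113 with 1 sample left out; the 73 that fell were 53 and 45 to 93. With the replicate number as a block the count was 823 (723 shared), and 521 in the wild type samples alone (457 shared, chosen after seeing the data). Deviations of same-numbered samples correlated at 0.33, 0.29, 0.46 and -0.13. Room air 1, 2 and 3 correlated best with their own number and room air 4 with hypoxia 2, and the labels name no shared batch, so the numbers were not taken to pair the samples. The percentage of calls that were higher lay between 52.6% and 58.2% in every alternative. Of 161 called genes among the 248 the naming rule took, 105 kept the call in all 21 alternatives, 17 uncalled genes gained one in at least 1, and 0 reversed. Among genes discussed above, those that lost the call in a fit of the wild type samples alone included Ankrd37, Vegfa, Ldha, Col5a2, Bgn, Col8a1, Bmp3, Cald1, Trpc6, Mfap5, Hey1, C6, Thbd, Retnla, Cd209a, Ciita, Sftpd, Cbr2, Ciart, Ugt1a6a, Ndufa4l2, Sparc, Fbn1, Ltbp1, Igfbp4 and Igfbp6. With the block in that fit, the losses also included Ackr4, Myl9, Higd1b, Blk, Cxcr5, Cd1d1, Cxcr4 and Klrc1. Further named genes not discussed above lost the call in these fits. At this depth a count of 0 still allows a level of up to 0.0696 to 0.315 CPM, by sample.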
